A study of Mus musculus with 64 samples.

Results

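Transcript levels of autosomal genes were compared between 2 male (XY) and 2 female (XX) lines of mouse embryonic stem (ES) cells, the 4 samples of the series whose stage label is ES, out of 64 samples in all. The lines were taken as male or female from their gender labels. Of the 23338 genes listed in each library, 22066 lay on an autosome, and only these are described below. All 4 lines were of the C57BL/6 strain by their labels (C57BL/6 J in the study's methods), with no transgene or deletion named in their labels, and had each been grown from the inner cell mass of a single embryo. The embryos were isolated at the eight-cell stage and raised to blastocysts, and the lines were expanded in defined medium with LIF and 2i, an inhibitor of the MAP kinase kinase MEK together with an inhibitor of glycogen synthase kinase-3. Male lines carry the numbers 1 and 2 and female lines the numbers 3 and 4. The sources used here do not say which lines came from the same litter, so that p-values measure the spread between these 4 lines and not that between mice. With 2 lines a side, an exact permutation test of a single value could not give a p-value below 0.333.

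In ES cells kept in 2i and LIF, the MEK inhibitor blocks the signal of fibroblast growth factor through ERK, the other inhibitor stabilises beta-catenin, and LIF acts through JAK kinases and Stat3. Together they hold the cells in the naive state of the early epiblast, in which Pou5f1, Sox2 and Nanog are expressed, most DNA methylation is lost and lineage genes are low. Female ES cells in this state keep both X chromosomes active, and autosomes are present in equal number in the 2 sexes.

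Each library held between 9857929 and 10386931 reads on genes, so that a level of 3 reads corresponded to 0.289 to 0.304 CPM (counts scaled to library size). X-linked genes took 3.10% of the reads in both male lines and 5.49% and 5.33% in female lines 3 and 4. Xist, the RNA that coats an inactive X chromosome, had 0, 1, 20 and 23 reads in lines 1 to 4, and the Y-linked genes Eif2s3y, Ddx3y and Uty had reads in the male lines only. The share of uniquely placed reads that matched no annotated feature in the counting was 29.3% and 31.3% in the male lines. It was 26.7% and 28.2% in the female lines, and its part in the differences below was not tested. A row of ribosomal repeats, Rn45s, stood at 40.2 and 799 CPM in the male and 60.6 and 9880 CPM in the female lines, and did not follow sex.

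One autosome set male line 1 apart. Over 1054 genes of chromosome 11 averaging 1 CPM or more, the median difference between male line 1 and male line 2 was 0.46 on the log2 scale (a factor of 1.37), and 88.8% of these genes were higher in male line 1. The corresponding medians of the other 18 autosomes lay between -0.08 and 0.01. Within chromosome 11 the median was above 0 in each of 13 bins of 10 Mb, from 0.14 to 0.54. Male line 2 differed from the mean of the female lines by a median of only 0.03 over the same genes, against -0.01 to 0.05 over the other autosomes. The karyotype of the lines was not tested. Values for genes on chromosome 11 are therefore marked below, and the counts of a gene list without that chromosome are given where they differ from those with it.

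**Figure D1:**
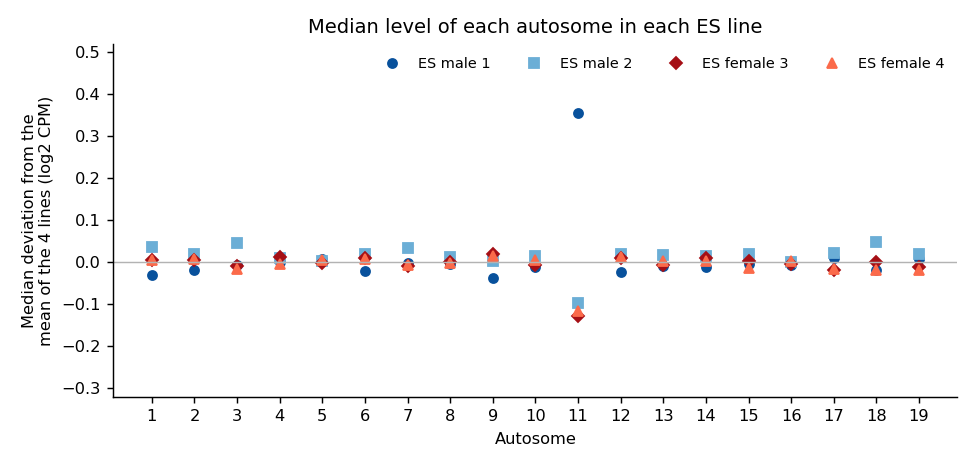
Median deviation of the genes of each autosome (x axis) from the mean of the 4 ES lines, in log2 CPM (y axis), with one symbol per line, over genes averaging 1 CPM or more. On chromosome 11, male line 1 lies above the other 3 lines, which lie together below 0 because they are set against a mean that includes male line 1.

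The female lines resembled each other more closely than the male lines did. Over 11977 autosomal genes averaging 1 CPM or more, the median absolute difference was 0.11 (log2) between female lines 3 and 4 and 0.21 between male lines 1 and 2, or 0.20 without chromosome 11. More than a 2-fold difference was seen for 67 genes between the female lines and for 557 between the male lines. Between a male and a female line, the median absolute difference ranged from 0.23 to 0.25, and 823 to 1064 genes differed more than 2-fold. The 2 female lines had a mean chi-square of 4.20 per gene where sampling alone gives about 1. Single genes with large differences raise this mean, such as Lars2 with 102 reads in female line 3 and 19938 in female line 4.

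Of 12139 autosomal genes that passed the filter on low counts, 899 (7.41%) were sex dimorphic, defined as a Benjamini-Hochberg adjusted p-value under 0.1 in edgeR's quasi-likelihood test and an absolute log2 (male/female) above 0.5. Expression was male-biased for 430 (3.54%) and female-biased for 469 (3.86%). The median absolute log2 of the dimorphic genes was 1.11, with 513 above a 2-fold and 130 above a 4-fold difference, and the median log2 (male/female) over all 12139 genes was 0.03. Chromosome 11 contributed 73 of the male-biased and 14 of the female-biased genes. Without it, 812 of 11077 genes (7.33%) were dimorphic, 357 male-biased (3.22%) and 455 female-biased (4.11%). When male line 1 was left out, the median log2 (male/female) of chromosome 11 genes was 0.03, against 0.29 with all 4 lines. The count depended on the female pair: with only female line 3 or only female line 4 kept, no gene passed the threshold (855 and 983 autosomal genes at an unadjusted p-value under 0.05, respectively), whereas leaving out male line 1 or 2 gave 2219 and 2688 genes. DESeq2 gave 814 genes, of which 687 were among the 899.

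**Figure D2:**
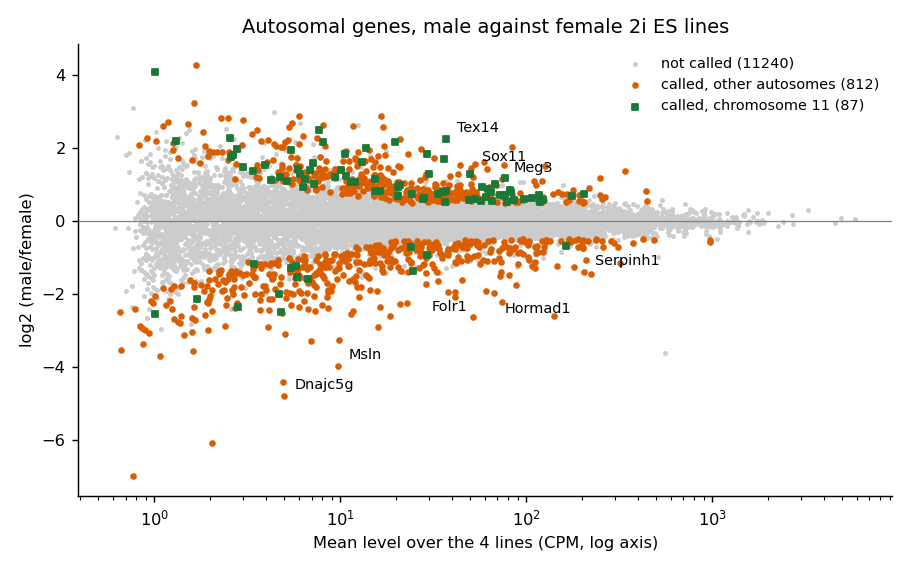
Log2 (male/female) of each of the 12139 autosomal genes tested (y axis) against its mean level over the 4 lines in CPM (x axis, log scale). The 812 dimorphic genes of other autosomes lie on both sides of 0, whereas most of the 87 on chromosome 11 (squares) lie above it.

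The genes with the smallest adjusted p-values separated the 2 sexes with little spread within a pair. A small p-value selects for such genes, so that their separation is not a further result. Sox11 (chromosome 12, 27334264 to 27342574 of GRCm38), which encodes a transcription factor of early neural cells that is followed below into fetal liver, was male-biased. It stood at 74.1 and 74.3 CPM in the male lines and 26.8 and 27.8 CPM in the female lines. Both male lines were thus 2.72 times as high as the female lines in the fit (log2 1.44, SE 0.10, adjusted p = 0.0104), and the pairs did not overlap. On the female-biased side Folr1 (chromosome 7, 101858331 to 101870788), the gene of folate receptor alpha, stood at 26.9 and 23.5 CPM in the male lines and 97.2 and 94.03 CPM in the female lines. It was 3.79-fold higher in the female lines (log2 -1.92, SE 0.12, adjusted p = 0.0104), again without overlap. In bulk samples such as these, fewer cells that express a gene and less RNA per cell cannot be told apart.

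The sequence upstream of Sox11 is shown because it was among the male-biased genes with the smallest adjusted p-values and the least spread. It covers 250 bases before and 50 after the transcription start that RefSeq gives on GRCm38.p6 (chr12:27342669-27342968, minus strand), written 5′ to 3′ with each CG dinucleotide in capitals.
Sox11: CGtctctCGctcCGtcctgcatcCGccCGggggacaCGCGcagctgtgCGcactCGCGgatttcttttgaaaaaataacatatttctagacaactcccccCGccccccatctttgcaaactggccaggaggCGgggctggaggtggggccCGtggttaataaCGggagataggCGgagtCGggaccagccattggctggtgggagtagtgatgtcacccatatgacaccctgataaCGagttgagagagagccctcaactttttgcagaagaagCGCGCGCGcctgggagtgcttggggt
The gene span given above ends at 27342574, short of this window, so that the RefSeq start lies outside that span. This window holds 21 CG dinucleotides, the possible sites of DNA methylation. Of 32851 RefSeq promoter windows of the same length, which had a median of 7, 24.8% held at least as many.

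A further 7 male-biased genes were among the 8 with the smallest adjusted p-values. Sft2d2 was at 29.1 and 29.3 CPM in the male lines and 5.56 and 4.23 CPM in the female lines (log2 2.57, SE 0.19, adjusted p = 0.0104). Ccdc141, a coiled-coil protein gene, was at 133 and 137 CPM in the male lines and 39.4 and 27.2 CPM in the female lines, a 4.04-fold difference. Rasgrp2, which encodes an exchange factor of the small GTPase Rap1, was at 35.9 and 33.7 CPM in the male lines and 8.29 and 6.39 CPM in the female lines. In these 3 genes each male line was more than 3 times as high as either female line. Ece1, the endothelin-converting enzyme, was at 33.02 and 39.1 CPM in the male lines and 9.81 and 10.3 CPM in the female lines (log2 1.84). Olig2, a transcription factor of motor neuron and oligodendrocyte precursors, was at 66.05 and 65.05 CPM in the male lines and 24.7 and 20.6 CPM in the female lines (log2 1.53). Sfn, the 14-3-3 sigma protein, was at 94.5 and 83.7 CPM in the male lines and 35.7 and 31.3 CPM in the female lines (log2 1.41). Both male lines were again above both female lines for each. The smallest of the leading differences was that of Hmgcs1, the synthase that makes HMG-CoA for cholesterol, at 553 and 578 CPM in the male lines and 318 and 324 CPM in the female lines (log2 0.82).

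Among female-biased genes with the smallest adjusted p-values, Serpinh1, the collagen chaperone HSP47, was at 108 and 116 CPM in the male lines and 282 and 311 CPM in the female lines (log2 -1.40, SE 0.091, adjusted p = 0.0104). Ppp2r2c, a regulatory subunit of protein phosphatase 2A, was at 40.6 and 40.98 CPM in the male lines and 138 and 135 CPM in the female lines (log2 -1.74). For both the lines of one sex lay close together and far from those of the other. Zbtb10, a zinc finger gene, was at 27.9 and 24.8 CPM in the male lines and 109 and 134 CPM in the female lines (log2 -2.21). Serpina3m, one of a cluster of similar protease inhibitor genes that could share reads, was at 6.41 and 7.93 CPM in the male lines and 34.8 and 34.2 CPM in the female lines, and Apcdd1, an inhibitor of Wnt signalling at the membrane, at 5.07 and 5.44 CPM in the male lines and 34.1 and 29.8 CPM in the female lines (log2 -2.60). Dnajc5g, a co-chaperone gene, was close to the limit of detection in the male lines, with 3 and 4 reads against 100 and 89 in the female lines.

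**Figure D3:**
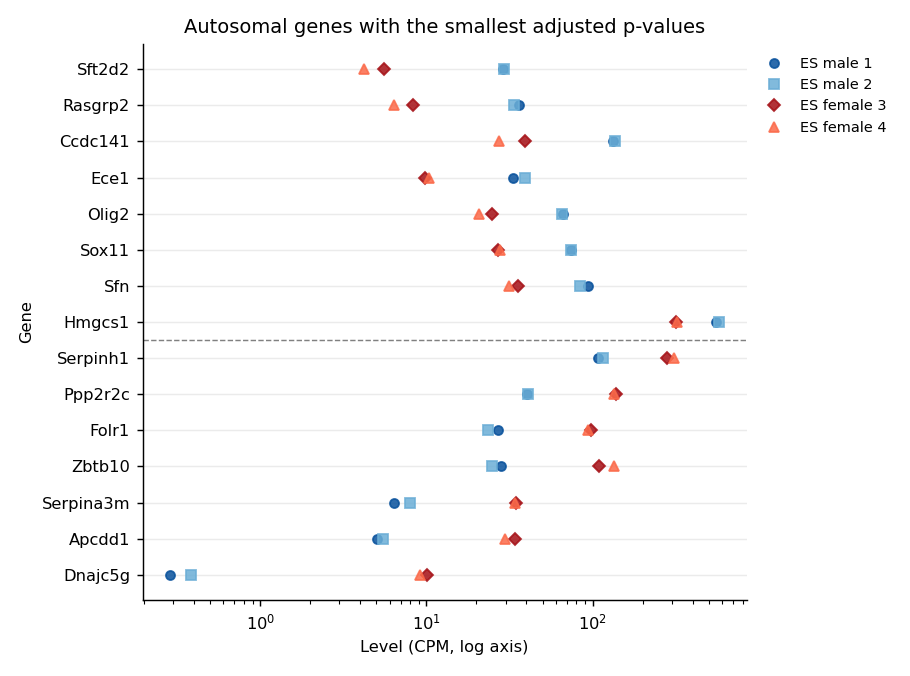
Level in CPM (x axis, log scale) of the 8 male-biased (above the dashed line) and 7 of the 8 female-biased autosomal genes (y axis) with the smallest adjusted p-values, with one symbol per ES line. In every gene shown the 2 male lines lie apart from the 2 female lines, which the choice by p-value favours.

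Where the mean level was 5 CPM or more, the largest male-biased differences were those of Smarcd3, a subunit of the BAF chromatin remodelling complex, at 25.7 and 32.4 CPM in the male against 6.07 and 1.75 CPM in the female lines (log2 2.88, adjusted p = 0.0352), and of Foxn4, a forkhead factor, at 11.9 and 9.36 CPM in the male against 1.82 and 1.03 CPM in the female lines (log2 2.88, adjusted p = 0.018). They were followed by Calb2, the calcium-binding protein calretinin (log2 2.68), the forkhead gene Foxp1 (log2 2.63) and Crmp1, a collapsin response mediator (log2 2.60). Of these, Smarcd3 and Calb2 also varied more than 3-fold between female lines 3 and 4, which were at 6.07 and 1.75 CPM for Smarcd3 and at 2.23 and 0.722 CPM for Calb2. The largest female-biased differences at a mean of 5 CPM or more were those of Msln, the surface protein mesothelin, at 0.574 and 1.72 CPM in the male against 16.4 and 20 CPM in the female lines (log2 -3.97, adjusted p = 0.0149), and Dpysl4, a relative of Crmp1, at 1.24 and 1.34 CPM in the male against 10.2 and 15.1 CPM in the female lines (log2 -3.28, adjusted p = 0.0111). Pramel6, of the PRAME family, stood at 1.15 and 2.58 CPM in the male against 13.5 and 22.3 CPM in the female lines, Odf2l at 1.63 and 0.478 CPM in the male against 9.91 and 8.04 CPM in the female lines and Ddr2, a receptor kinase for collagen, at 4.4 and 3.15 CPM in the male against 26.7 and 29.7 CPM in the female lines. Crmp1 and Dpysl4, 2 members of one family, thus differed in opposite directions.

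Core pluripotency genes were expressed at high levels in all 4 lines and 1 of the 9 defining naive genes was dimorphic. Pou5f1 stood at 789 and 862 CPM in the male lines and 921 and 905 CPM in the female lines (log2 -0.15, adjusted p = 0.279). Sox2 was at 381 and 361 CPM in the male against 447 and 423 CPM in the female lines (log2 -0.23, adjusted p = 0.141), and Nanog at 486 and 503 CPM in the male against 552 and 554 CPM in the female lines (log2 -0.16, adjusted p = 0.207). All 3 were a little lower in both male lines, by less than the thresholds. For Esrrb, Klf4, Tfcp2l1 and Zfp42, further factors of the naive network, the log2 was between -0.07 and 0.38, and none passed the test. Dppa3, which protects DNA methylation in the early embryo, was at 139 and 47.7 CPM in the male against 51.1 and 45.3 CPM in the female lines, so that male line 1 alone stood apart.

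Of 38 naive pluripotency genes tested, 2 were male-biased and 3 female-biased (13.2% called, beside 7.41% of all autosomal genes), or 1 and 3 of 36 without chromosome 11, with a median log2 of -0.06 against 0.03 for all autosomal genes. Prdm14, which represses the de novo methyltransferases and fibroblast growth factor signalling in naive cells, was female-biased at 146 and 153 CPM in the female lines and 76.8 and 88.1 CPM in the male lines (log2 -0.86, SE 0.10, adjusted p = 0.0187). Dppa2, a nuclear protein of pluripotent cells, was at 111 and 128 CPM in the female lines and 59.6 and 73.4 CPM in the male lines (log2 -0.85, SE 0.14, adjusted p = 0.0334). Ooep, a maternal factor of the oocyte cortex that ES cells also express, was at 172 and 146 CPM in the female lines and 62.1 and 67.1 CPM in the male lines (log2 -1.30, SE 0.12, adjusted p = 0.0104). For these 3 genes every female line was higher than every male line. The male-biased members were Lin28a, an RNA-binding protein that blocks let-7 maturation, at 252 and 201 CPM in the male lines and 169 and 143 CPM in the female lines (log2 0.54, adjusted p = 0.0955), and Stat3 on chromosome 11, described with the LIF pathway.

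Genes of the formative and primed states, which follow the naive state when 2i is withdrawn, were near the limit of detection or not dimorphic as far as the defining members go. Fgf5 was below 0.83 CPM in every line and was not tested. Otx2 was at 2.87 and 4.3 CPM in the male against 1.92 and 1.03 CPM in the female lines and Pou3f1 at 2.2 and 1.53 CPM in the male against 1.92 and 1.44 CPM in the female lines, with adjusted p-values of 0.161 and 0.855. Of 23 members tested, 2 were male-biased and 1 was female-biased (13.04% called, beside 7.41% of all autosomal genes). The median log2 over the 23 members was 0.15, or 0.22 without chromosome 11. Zic2, a zinc finger factor at 55.4 and 47.1 CPM in the male against 28.1 and 23.9 CPM in the female lines (log2 0.98, adjusted p = 0.0267), and Epha4, an ephrin receptor at 183 and 193 CPM in the male against 119.7 and 95.7 CPM in the female lines (log2 0.80, adjusted p = 0.0307), were male-biased. Cdh2, or N-cadherin, was female-biased at 33.4 and 37.8 CPM in the female lines and 19.9 and 16.4 CPM in the male lines (log2 -0.97, adjusted p = 0.0318).

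In the list of fibroblast growth factor and ERK signalling, the pathway that the MEK inhibitor blocks, 1 of 46 tested members was dimorphic (2.17%, beside 7.41% of all autosomal genes), and the median log2 was 0.05. That member was Dusp14, a phosphatase gene on chromosome 11, so that none of the 42 members on other autosomes was called. It was at 29.1 and 31.7 CPM in the male lines and 18.4 and 17.8 CPM in the female lines (log2 0.75, adjusted p = 0.0382). Its log2 was 0.81 without male line 1. The feedback inhibitor Spry2 was at 72.2 and 86.4 CPM in the male against 79.8 and 87.3 CPM in the female lines, and the ligand Fgf4 at 420.4 and 464 CPM in the male against 451 and 418 CPM in the female lines. Dusp6, the ERK phosphatase, was at 10.6 and 15.2 CPM in the male against 9 and 8.45 CPM in the female lines (log2 0.56, adjusted p = 0.226). The pairs overlapped for Spry2 and Fgf4, and did not for Dusp6, whose difference missed the threshold. Etv5 was at 569.5 and 450.4 CPM in the male against 473 and 503 CPM in the female lines. Etv4, on chromosome 11, stood apart only in that male line 1 was low and male line 2 high, at 3.16 and 16.7 CPM in the male lines and 9.41 and 9.79 CPM in the female lines. Egr1 and Spry4 were at or below 2.29 CPM in every line.

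In the Wnt pathway, which the GSK3 inhibitor activates, 1 of 37 members was male-biased and 2 were female-biased, with a median log2 of 0.00. The share called, 8.11%, was close to the 7.41% of all autosomal genes. Fzd5, a receptor, was at 133 and 169 CPM in the male lines and 96.8 and 93.8 CPM in the female lines (log2 0.66, adjusted p = 0.0524). The female-biased members were Dkk3, a secreted member of the Dickkopf family, at 13.05 and 14.1 CPM in the female lines and 4.21 and 2.87 CPM in the male lines (log2 -1.94, adjusted p = 0.022), and Tnfrsf19, a receptor and target of the pathway, at 53.1 and 74.5 CPM in the female lines and 35.2 and 30.1 CPM in the male lines (log2 -0.97, adjusted p = 0.0516). Of the targets Axin2, Sp5 and Lef1, none passed the test. Axin2, on chromosome 11, was at 79.4 and 57.9 CPM in the male lines and 47.5 and 50.9 CPM in the female lines (adjusted p = 0.169), Sp5 at 19.3 and 16.6 CPM in the male against 20.03 and 13.7 CPM in the female lines and Lef1 at 8.14 and 3.15 CPM in the male against 1.31 and 2.89 CPM in the female lines (adjusted p = 0.221). Cdx1 varied between lines of the same sex, at 5.26 and 22.7 CPM in the male lines and 10.5 and 17.7 CPM in the female lines.

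The LIF and JAK/STAT list had 4 male-biased and 2 female-biased members of 31 tested (19.4% called, beside 7.41% of all autosomal genes). The median log2 was 0.22 against 0.03 for all autosomal genes, and 7 of the 31 lie on chromosome 11. Without them 2 members were male-biased and 2 female-biased of 24, with a median of 0.17. The receptors Lifr and Il6st, which bind LIF together, had adjusted p-values of 0.253 and 0.228. Il6ra, the receptor subunit for interleukin-6, was female-biased at 14.7 and 15.2 CPM in the female lines and 6.7 and 9.36 CPM in the male lines (log2 -0.89, adjusted p = 0.0896). Among kinases, Jak3 was male-biased at 55.1 and 61.6 CPM in the male lines and 30.5 and 28.5 CPM in the female lines (log2 0.98, SE 0.12, adjusted p = 0.018). Stat3 itself was at 149 and 145 CPM in the male lines and 105 and 93.9 CPM in the female lines (log2 0.56, SE 0.096, adjusted p = 0.0352), and its target Socs3, a feedback inhibitor, at 77.4 and 113 CPM in the male lines and 59.1 and 57.3 CPM in the female lines (log2 0.71, adjusted p = 0.0994). Both are on chromosome 11, and the log2 without male line 1 was 0.54 for Stat3 and 0.96 for Socs3. Further targets went in opposite directions. Pim1, a kinase gene, was female-biased at 139.6 and 137 CPM in the female lines and 87.97 and 79.8 CPM in the male lines (log2 -0.72, adjusted p = 0.0213), and Gadd45g was male-biased at the low levels of 2.2 and 1.91 CPM in the male lines and 0.506 and 0.722 CPM in the female lines (log2 1.73, adjusted p = 0.0874).

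Of 41 members of the Nodal, TGF-beta and BMP list, none of which lies on chromosome 11, 4 were male-biased and 1 was female-biased (12.2% called, beside 7.41% of all autosomal genes), with a median log2 of 0.04. On the BMP side, the signal transducer Smad1 was at 21.2 and 25.1 CPM in the male lines and 11.8 and 7.84 CPM in the female lines (log2 1.23, adjusted p = 0.0501) and its target Id3, an inhibitor of differentiation factors, at 17.4 and 20.1 CPM in the male lines and 9.91 and 6.5 CPM in the female lines (log2 1.19, adjusted p = 0.0591). Both male lines were higher than both female lines for both genes. The BMP antagonist Chrd was male-biased at a low level, 3.06 and 3.15 CPM in the male against 0.708 and 0.928 CPM in the female lines, as was Fstl1 at 62.98 and 102 CPM in the male against 40.4 and 46.6 CPM in the female lines. Id1 and Bmp4, the ligand, were below 3 CPM in every line and not dimorphic. On the Nodal side, Nodal was at 113 and 123 CPM in the male against 134 and 132 CPM in the female lines (log2 -0.18, adjusted p = 0.294). The inhibitors Lefty1 and Lefty2, both targets of Nodal, were higher in both female lines but varied between the male lines. Lefty1 was at 79.1 and 26.2 CPM in the male lines and 146 and 106 CPM in the female lines (log2 -1.26, adjusted p = 0.196) and Lefty2 at 496 and 187 CPM in the male lines and 792 and 570.4 CPM in the female lines (log2 -0.996, adjusted p = 0.244).

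Of 16 retinoic acid and Hox genes tested, 1 was male-biased and 3 were female-biased (25% called, beside 7.41% of all autosomal genes), with a median log2 of -0.06. Without chromosome 11 no male-biased member was left among 14. Rara, the retinoic acid receptor alpha gene on chromosome 11, was at 63.1 and 47.7 CPM in the male lines and 17.8 and 16.3 CPM in the female lines (log2 1.70, SE 0.17, adjusted p = 0.0126), and the log2 was 1.48 without male line 1. Its partner receptor Rxra went the other way, at 37.2 and 41.1 CPM in the female lines and 16.6 and 17.8 CPM in the male lines (log2 -1.19, SE 0.13, adjusted p = 0.0151). Aldh1a2, which makes retinoic acid, was at 13.05 and 14.7 CPM in the female lines and 6.13 and 8.6 CPM in the male lines (log2 -0.92, adjusted p = 0.0937). The induced targets Cyp26a1, Rarb and Stra8 were at or below 1.03 CPM. Of 29 Notch and Hippo genes, 3 (10.3%) were female-biased and none male-biased, with a median log2 of -0.04. The 3 were Mfng, which modifies Notch receptors (log2 -1.51), Amotl1, which binds Yap1 (log2 -1.08), and Ctgf, a target of Yap1 (log2 -0.76). Notch1, Hes1 and Yap1 had log2 values between -0.19 and 0.07 and were not dimorphic.

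Among DNA methylation genes, the maintenance enzyme and its partner did not pass the test, whereas Dnmt3l and Tet3 were female-biased. Of 41 members tested, 1 was male-biased and 4 were female-biased (12.2% called, beside 7.41% of all autosomal genes), with a median log2 of 0.04. Dnmt1 was at 514 and 511 CPM in the male lines and 524 and 506 CPM in the female lines (log2 -0.01, adjusted p = 0.97), and Uhrf1, which brings it to replicated DNA, at 655 and 753 CPM in the male against 701 and 723 CPM in the female lines (log2 -0.02, adjusted p = 0.93). Dnmt3l, the inactive cofactor of the de novo methyltransferases, was at 65.3 and 64.95 CPM in the female lines and 32.2 and 29.7 CPM in the male lines (log2 -1.07, SE 0.11, adjusted p = 0.0115). The de novo enzymes themselves were not dimorphic and varied between the male lines. Dnmt3a was at 48.7 and 18.1 CPM in the male lines and 41.5 and 43.2 CPM in the female lines and Dnmt3b at 218 and 113 CPM in the male lines and 130.3 and 142 CPM in the female lines, so that male line 1 was the highest and male line 2 the lowest for both. Of the enzymes that oxidise methylcytosine, Tet1 was at 533 and 685 CPM in the male against 550.5 and 526 CPM in the female lines and Tet2 at 219 and 395 CPM in the male against 216 and 253 CPM in the female lines, with adjusted p-values of 0.442 and 0.433. Tet3 had much lower levels, at 9.51 and 10.8 CPM in the female lines and 4.21 and 2.29 CPM in the male lines (log2 -1.64, SE 0.34, adjusted p = 0.0541). The remaining called members were Prdm14 and Gadd45g, given above, and Idh2, which makes the alpha-ketoglutarate that Tet enzymes use, at 282 and 281 CPM in the female lines and 169.8 and 221 CPM in the male lines (log2 -0.53, adjusted p = 0.0887). DNA methylation itself was not measured in these samples.

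Germline genes, many of which are silenced by promoter methylation in somatic cells, had 2 male-biased and 3 female-biased members of 44 tested (11.4% called, beside 7.41% of all autosomal genes), or 1 and 3 of 39 without chromosome 11, and a median log2 of -0.17. Hormad1, a protein of the meiotic chromosome axis, was at 123 and 90.7 CPM in the female lines and 40.01 and 14.3 CPM in the male lines (log2 -1.98, SE 0.46, adjusted p = 0.074). The male lines differed almost 3-fold from each other for this gene, and both were still below either female line. Sycp1, of the synaptonemal complex, was at 5.36 and 4.95 CPM in the female lines and 1.82 and 1.72 CPM in the male lines (log2 -1.54, SE 0.29, adjusted p = 0.0439), and Piwil2, which binds piRNAs, at 16.5 and 16.7 CPM in the female lines and 5.74 and 9.55 CPM in the male lines (log2 -1.12, adjusted p = 0.083). Tex14, of the intercellular bridge of germ cells, was male-biased at 73.6 and 49.5 CPM in the male lines and 14.8 and 11.1 CPM in the female lines (log2 2.25, SE 0.25, adjusted p = 0.0152). It lies on chromosome 11 and had a log2 of 1.93 without male line 1. Stag3, a meiotic cohesin subunit, was at 28.8 and 19.9 CPM in the male lines and 14.2 and 11.9 CPM in the female lines (log2 0.90, adjusted p = 0.0908). Dazl was at 12.3 and 12.04 CPM in the male against 13.6 and 19.5 CPM in the female lines and Ddx4 at 13.8 and 19.96 CPM in the male against 9.61 and 12.5 CPM in the female lines, and neither passed the test, nor did Mael and Sycp3. Tex101 and Asz1 were at or below 0.62 CPM in every line.

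The promoter windows of Hormad1 and Sycp1 are shown because both genes are female-biased members of this list on chromosome 3 and have windows rich in CG, the dinucleotide that DNA methylation acts on. They come from RefSeq (GRCm38.p6) at chr3:95559427-95559726 on the plus strand and chr3:102936051-102936350 on the minus strand, with CG in capitals.
Hormad1: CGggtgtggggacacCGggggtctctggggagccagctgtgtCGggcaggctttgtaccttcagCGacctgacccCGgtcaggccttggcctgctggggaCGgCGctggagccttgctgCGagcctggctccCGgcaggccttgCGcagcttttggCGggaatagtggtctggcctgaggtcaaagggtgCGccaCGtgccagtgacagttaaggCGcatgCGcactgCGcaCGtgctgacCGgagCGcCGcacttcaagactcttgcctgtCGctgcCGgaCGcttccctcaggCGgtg
Sycp1: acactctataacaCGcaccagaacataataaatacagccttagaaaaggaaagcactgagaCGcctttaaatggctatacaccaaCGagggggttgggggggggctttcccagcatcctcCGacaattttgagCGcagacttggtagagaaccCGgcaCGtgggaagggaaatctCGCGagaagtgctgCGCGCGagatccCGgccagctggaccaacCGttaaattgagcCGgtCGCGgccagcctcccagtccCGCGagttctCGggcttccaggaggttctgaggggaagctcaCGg
The Hormad1 window holds 24 CG dinucleotides, a number that 19.98% of all windows reach, and the Sycp1 window 21, which 24.8% reach. These are counts of letters and do not show whether the sites are methylated.

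Imprinted genes, which are expressed from one parental allele, had 6 male-biased and 3 female-biased members of 51 tested (17.6% called, beside 7.41% of all autosomal genes), or 5 and 3 of 46 without chromosome 11, with a median log2 of -0.01 against 0.03 for all autosomal genes. The maternally expressed non-coding RNAs of the Dlk1 region on chromosome 12 were male-biased together. Meg3 (chromosome 12, 109541001 to 109571726) was at 94.8 and 111 CPM in the male lines and 51.8 and 40.8 CPM in the female lines (log2 1.15, SE 0.15, adjusted p = 0.0219), and Rian at 270.4 and 416 CPM in the male lines and 164 and 141 CPM in the female lines (log2 1.17, SE 0.21, adjusted p = 0.0415). All 4 lines had reads of both RNAs, with each male line above each female line. Dlk1, the paternally expressed gene of the same region, had 1 read in 1 line. Peg3, paternally expressed, was at 260.4 and 307 CPM in the male lines and 125 and 178 CPM in the female lines (log2 0.91, adjusted p = 0.0533). The female-biased members were Ndn at 16.2 and 15.3 CPM in the female lines and 6.99 and 6.3 CPM in the male lines (log2 -1.24, adjusted p = 0.0276), Cd81 at 452 and 455 CPM in the female lines and 276 and 321 CPM in the male lines (log2 -0.60, adjusted p = 0.0288) and Qpct at 14.97 and 13.8 CPM in the female lines and 6.6 and 8.69 CPM in the male lines (log2 -0.91, adjusted p = 0.0785). H19 was between 1.91 and 3.30 CPM, and Igf2 and Snrpn were at or below 1.05 CPM in every line. Grb10, on chromosome 11, was at 24.5 and 42.3 CPM in the male lines and 57.4 and 57.4 CPM in the female lines (log2 -0.78, adjusted p = 0.145), lower in both male lines without passing the threshold. Ddc, next to Grb10, was male-biased at 32.1 and 36.5 CPM in the male lines and 21.7 and 22.9 CPM in the female lines (log2 0.62, adjusted p = 0.0607). Without male line 1 its log2 was 0.71.

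**Figure D4:**
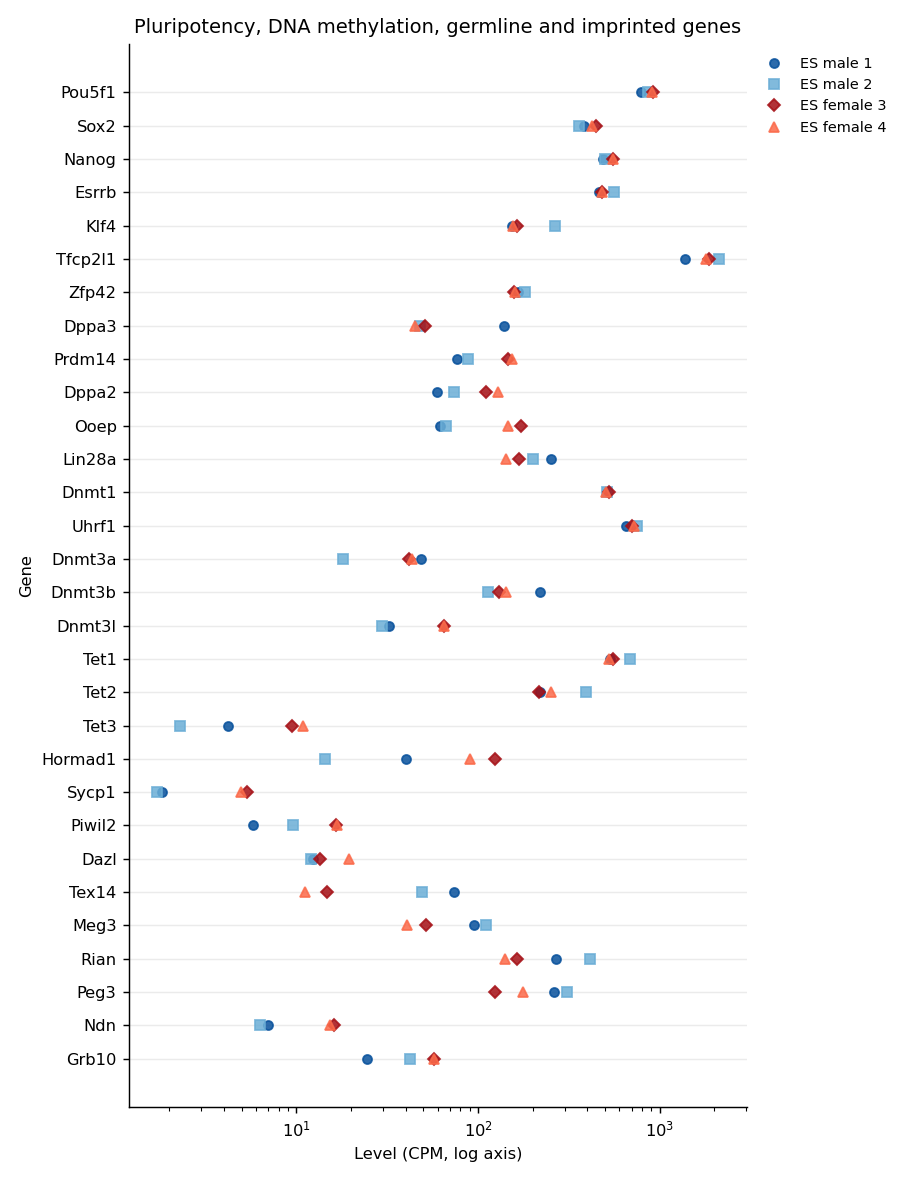
Level in CPM (x axis, log scale) of 30 genes of pluripotency, DNA methylation, the germline and imprinting (y axis), with one symbol per ES line. The symbols of Pou5f1, Nanog, Dnmt1 and Uhrf1 nearly coincide, those of Prdm14, Dnmt3l, Tet3, Hormad1, Sycp1 and Meg3 fall into 2 groups by sex, and those of Dppa3, Dnmt3a and Dnmt3b differ between the male lines.

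Of 35 Polycomb genes, none was male-biased and 2 were female-biased (5.71% called, near the 7.41% of all autosomal genes), or 1 of 27 without chromosome 11. The 2 were Scmh1 at 33.3 and 35.5 CPM in the female lines and 20.2 and 18.4 CPM in the male lines (log2 -0.83, adjusted p = 0.0294) and E130012A19Rik on chromosome 11 at 188 and 213 CPM in the female lines and 133 and 117 CPM in the male lines (log2 -0.68, adjusted p = 0.0307). The catalytic subunit Ezh2 was at 139 and 162 CPM in the male against 128 and 131 CPM in the female lines and Eed at 263 and 311 CPM in the male against 288 and 288 CPM in the female lines. Suz12, on chromosome 11, was at 751 and 525 CPM in the male lines and 534 and 519.9 CPM in the female lines, with male line 1 alone above the rest. Of 29 genes of H3K9 methylation and the Trim28 pathway, edgeR called none (4 at an unadjusted p-value under 0.05, and 0 by DESeq2), with log2 values from -0.23 to 0.50, Setdb1 at 0.18 and Trim28 at 0.12. Of 42 cell cycle genes edgeR called none as well (9 at an unadjusted p-value under 0.05, and 1 by DESeq2). Of 36 histone genes 1 was dimorphic, Hist1h4i (log2 0.73), one of many similar copies that could share reads.

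Among lineage lists, neuroectoderm stood at 5 male-biased and 1 female-biased member of 27 tested (22.2% called, beside 7.41% of all autosomal genes), with a median log2 of 0.55 against 0.03 for all autosomal genes and no member on chromosome 11. Sox11, Olig2 and Zic2 are described above. Crmp1 was at 27.3 and 12.99 CPM in the male lines and 3.54 and 3.09 CPM in the female lines (log2 2.60, adjusted p = 0.0316). Male line 1 was more than 2 times as high as male line 2 for Crmp1, and the pairs did not overlap. Ncam1, a cell adhesion molecule of neurons, was female-biased at 81.1 and 86.9 CPM in the female lines and 41.2 and 37.7 CPM in the male lines (log2 -1.09, adjusted p = 0.0111). Of the other defining members, Pax6 was at 3.92 and 1.91 CPM in the male against 0.708 and 0.825 CPM in the female lines (log2 1.91, adjusted p = 0.102), Nes at 45.8 and 30.9 CPM in the male against 40.3 and 39.7 CPM in the female lines, and Sox1 was below 3 CPM in every line and not tested.

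Of the defining genes of mesendoderm, primitive endoderm, trophectoderm and 2-cell-like cells, Eomes and Krt8 had the highest levels, up to 21.01 CPM for Krt8 in male line 2. Mesendoderm had 15 of 40 autosomal members above the filter. Of these, 1 was dimorphic (6.67%, beside 7.41% of all autosomal genes), Krt7, a keratin given below. T was at 3.45 and 3.82 CPM in the male against 3.34 and 2.99 CPM in the female lines and Eomes at 7.75 and 12.4 CPM in the male against 5.16 and 2.89 CPM in the female lines (log2 1.32, adjusted p = 0.118), and Mixl1 and Gata6 stayed below 0.48 CPM. For primitive endoderm, the 6 defining genes summed to 5.36 and 9.46 CPM in the male and 5.66 and 6.19 CPM in the female lines, and none of them was dimorphic. The whole list of 28 summed to 2049 to 2403 CPM in the male and 2368 to 2473 CPM in the female lines. Of its 17 members tested, 2 were female-biased and none male-biased (11.8% called). These were Serpinh1, given above, and Thbd, or thrombomodulin, at 1.42 and 1.86 CPM in the female lines and 0.383 and 0.287 CPM in the male lines. The 5 defining trophectoderm genes summed to 19.5 and 28.5 CPM in the male and 14.4 and 12.99 CPM in the female lines. Krt8, a keratin of simple epithelia, was male-biased at 15.98 and 21.01 CPM in the male lines and 7.08 and 4.43 CPM in the female lines (log2 1.68, adjusted p = 0.036), as was Krt7 at 3.25 and 4.68 CPM in the male lines and 1.42 and 0.722 CPM in the female lines (log2 1.88, adjusted p = 0.078), whereas Cdx2 was at 0.67 and 1.81 CPM in the male against 2.53 and 4.12 CPM in the female lines (log2 -1.41, adjusted p = 0.195) and Elf5 at or below 0.31 CPM. Gata3, another defining trophectoderm gene, was at 0.0957 and 0.478 CPM in the male against 1.42 and 1.96 CPM in the female lines (log2 -2.51, adjusted p = 0.104), so that both female lines were higher without passing the test. Of the 19 trophectoderm genes tested, 2 were male-biased and none female-biased (10.5% called). Their median log2 was -0.24, or -0.04 without chromosome 11, over all 19 and 18 genes. All 27 trophectoderm genes summed to 472 to 535 CPM in the male and 457 to 491 CPM in the female lines. The 3 defining genes of 2-cell-like cells, Zscan4c, Zfp352 and Tcstv3, were at or below 1.13 CPM. Of their list, 1 of 8 tested members (12.5%) was dimorphic, Dppa2, given above. The whole list of 42 summed to 587 to 612 CPM in the male and 682 to 712 CPM in the female lines.

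Of the 7 defining genes of fibroblast feeders, Dcn, Lum and Postn had no read in any line, and Col1a2 and Col3a1 had 1 read in 1 line. The 7 summed to 0.957 and 1.43 CPM in the male and 3.44 and 3.51 CPM in the female lines. The difference lay mainly in Col1a1, the collagen I chain on chromosome 11, and in Thy1. Col1a1 was at 1.52 and 1.96 CPM in the female lines and 0.0957 and 0.478 CPM in the male lines (log2 -2.55, adjusted p = 0.0969). Without male line 1 its log2 was -1.84. Thy1 was at 1.92 and 1.55 CPM in the female lines and 0.861 and 0.764 CPM in the male lines (log2 -1.08, adjusted p = 0.192). All 22 members summed to 58.96 to 62.9 CPM in the male and 85.3 to 92.9 CPM in the female lines. The part of other cell types in the genes of matrix and adhesion that follow was not tested.

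Lists of the extracellular matrix and of adhesion held more female-biased than male-biased members. Of 25 matrix genes, 1 was male-biased and 5 were female-biased (24% called, beside 7.41% of all autosomal genes), or 1 and 4 of 23 without chromosome 11, with a median log2 of -0.14. Beside Serpinh1 and Col1a1 these were Col18a1 (log2 -0.73), Fbln1 (log2 -0.54) and Ctgf (log2 -0.76). The male-biased member was Mmp14, a membrane metalloproteinase, at 10.6 and 10.2 CPM in the male against 5.06 and 3.3 CPM in the female lines. Fn1, or fibronectin, a defining member of the list, was at 769 and 884 CPM in the male against 586 and 621 CPM in the female lines (log2 0.45, adjusted p = 0.0503), higher in both male lines by less than the log2 threshold. The main basement membrane genes Col4a1 and Lama1 were not dimorphic. Of 35 adhesion and cytoskeleton genes, 2 were male-biased and 6 female-biased (22.9% called). Epcam, an adhesion molecule of epithelial and ES cells, was at 116 and 122 CPM in the female lines and 48.9 and 36.3 CPM in the male lines (log2 -1.48, SE 0.16, adjusted p = 0.0142), and the integrin subunit Itgb1 at 291 and 279.6 CPM in the female lines and 126 and 146 CPM in the male lines (log2 -1.07, SE 0.099, adjusted p = 0.0104). Anxa2, annexin A2, was at 10.1 and 10.5 CPM in the female lines and 3.16 and 3.73 CPM in the male lines (log2 -1.58, adjusted p = 0.0258). Each of these 3 was higher in either female than in either male line. Cnn2, a calponin, was male-biased at 23.7 and 15.4 CPM in the male lines and 5.06 and 5.46 CPM in the female lines (log2 1.89, adjusted p = 0.0254), whereas Cdh1, or E-cadherin, was at 477 and 465 CPM in the male against 448 and 368 CPM in the female lines (log2 0.21, adjusted p = 0.299).

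Of 37 stress and amino acid response genes, 6 (16.2%) were female-biased, beside 3.86% of all autosomal genes, and none male-biased, with a median log2 of -0.35. The highest levels among them were those of Hsp90b1, the endoplasmic reticulum chaperone GRP94, at 1168 and 1123 CPM in the female lines and 808 and 798 CPM in the male lines (log2 -0.51, SE 0.062, adjusted p = 0.018). Psat1, of serine synthesis, was at 368 and 408 CPM in the female lines and 230.5 and 239.8 CPM in the male lines (log2 -0.72, adjusted p = 0.0167), and Hspb1, a small heat shock protein, at 353 and 357 CPM in the female lines and 216 and 255 CPM in the male lines (log2 -0.59, adjusted p = 0.0344). Chac1, a target of Atf4, was at the low level of 5.26 and 6.5 CPM in the female lines and 2.2 and 2.87 CPM in the male lines (log2 -1.21, adjusted p = 0.0839). The other Atf4 targets Asns, Trib3 and Ddit3 were not dimorphic, with log2 values from -0.29 to -0.13. Among 34 targets of p53 (8.82% called, near the share of all autosomal genes), Rrm2b was male-biased (log2 1.13) and Perp and Bbc3 were female-biased (log2 -1.30 and -0.58). Cdkn1a, Mdm2 and Ccng1, the last on chromosome 11, had log2 values between -0.06 and 0.00.

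In cholesterol synthesis, 4 of 29 members were male-biased and 1 was female-biased (17.2% called, beside 7.41% of all autosomal genes), with a median log2 of 0.13. Beside Hmgcs1, the male-biased members included Idi1 at 138 and 135 CPM in the male lines and 94.7 and 94.03 CPM in the female lines (log2 0.53, adjusted p = 0.0304) and Fdft1 at 238 and 237 CPM in the male lines and 170.2 and 165 CPM in the female lines (log2 0.50, adjusted p = 0.0255). Sqle, the epoxidase that follows Fdft1, was female-biased at 227 and 220.2 CPM in the female lines and 157 and 158 CPM in the male lines (log2 -0.50, adjusted p = 0.0265). In glycolysis and hypoxia, 2 of 36 members were male-biased and 3 female-biased (13.9% called). The glucose transporter gene Slc2a1 was female-biased at 267 and 239 CPM in the female lines and 159.7 and 144 CPM in the male lines (log2 -0.74, adjusted p = 0.0215), as were the phosphofructokinase genes Pfkl and Pfkp (log2 -0.52 and -0.54). Pdk1, which restrains pyruvate entry into mitochondria, was male-biased at 58.96 and 50.6 CPM in the male lines and 27.5 and 18.9 CPM in the female lines (log2 1.24, adjusted p = 0.0329), as was the adenylate kinase gene Ak4 at 399.9 and 587 CPM in the male lines and 160.0 and 219 CPM in the female lines (log2 1.38, adjusted p = 0.0335).

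Interferon and MHC genes had 4 male-biased and no female-biased members of 20 tested (20% called, beside 7.41% of all autosomal genes), with a median log2 of 0.24. Without chromosome 11, 3 of 19 were male-biased and the median was 0.20. Bst2, or tetherin, was at 29.6 and 15.5 CPM in the male lines and 6.27 and 5.46 CPM in the female lines (log2 1.94, SE 0.35, adjusted p = 0.0415), and Ifitm1 at 179 and 122 CPM in the male lines and 75.4 and 77.2 CPM in the female lines (log2 0.98, adjusted p = 0.0463). Stat2 was at 37.2 and 37.3 CPM in the male against 24.3 and 25.9 CPM in the female lines (log2 0.57, adjusted p = 0.0529), and Irf1, on chromosome 11, at 92.2 and 59.4 CPM in the male against 43.5 and 35.6 CPM in the female lines (log2 0.94, adjusted p = 0.0857). Male line 1 was the highest line for Bst2, Ifitm1 and Irf1. B2m, the light chain of MHC class I, was not dimorphic, with a log2 of 0.02.

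**Figure D5:**
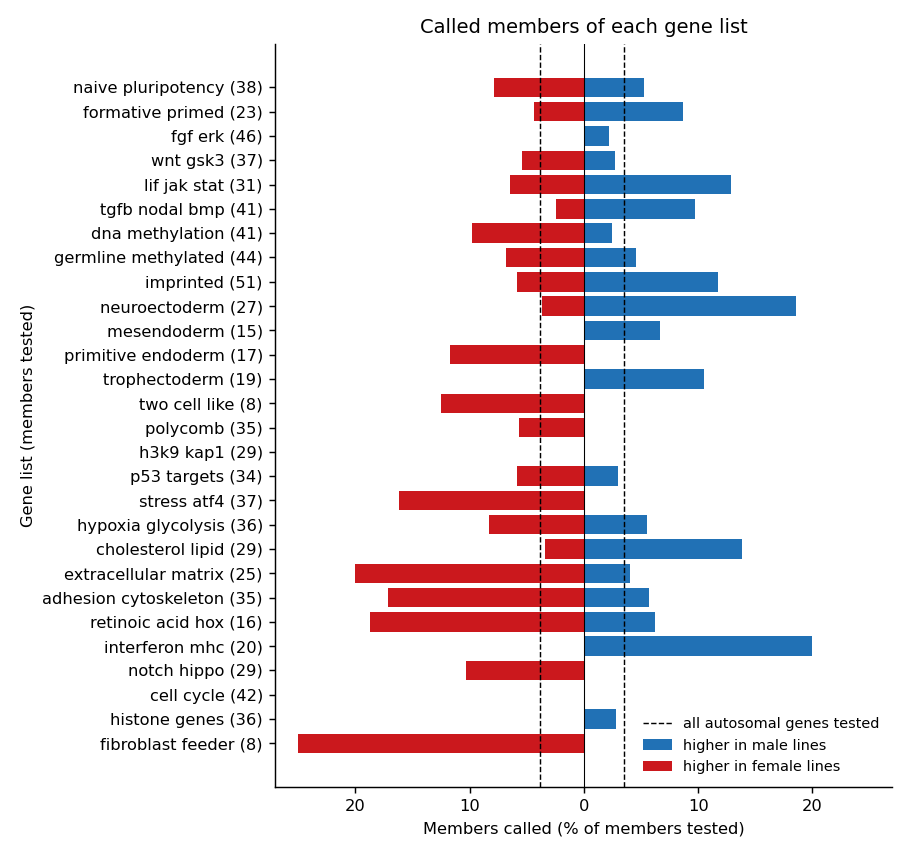
Share of the tested members of each of 28 gene lists (y axis, number tested in brackets) that were male-biased (to the right) or female-biased (to the left), in percent (x axis). Dashed lines mark the shares of all autosomal genes, 3.54% and 3.86%; lists hold between 8 and 51 tested members, so that 1 gene moves a bar by 2 to 12.5 percentage points.

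The sex effect in ES lines was also set against that in the livers of 24 C57BL/6 fetuses (12 male, 12 female) taken late in gestation. Of 10834 autosomal genes averaging 1 CPM or more in both, 1793 (16.5%) had a different sex effect in the 2 kinds of sample by edgeR's test of the interaction (adjusted p under 0.1, absolute log2 difference above 0.5). This count runs over all these genes and not over the 899 dimorphic ones, so that a gene with a sex effect only in the livers can enter it. It does not show how many of the ES differences also occurred in the livers. The spread of each gene in this fit comes mostly from the livers. The share of uniquely placed reads that matched no annotated feature was 39.9% to 49.0% in the male and 34.1% to 38.1% in the female livers. The 2 ranges did not overlap, and the part of this library difference in the sex effect of the livers was not tested. Sox11 ranged from 5.71 to 9.49 CPM in male (median 7.5) and from 4.67 to 11.6 CPM in female livers (median 6.16), with a log2 (male/female) of 0.06. The male bias of Sox11 in ES lines was larger than that by 1.37 on the log2 scale (adjusted p of the interaction = 0.000249). Sox11 was chosen with its difference in these ES lines known, so that this p-value is not independent of the choice. Folr1 had a median of 0.188 CPM in male and 0.350 CPM in female livers, with 1 female liver at 39.3 CPM. In the fit, the log2 (male/female) of Folr1 in the livers was -3.83. Its difference in sex effect did not pass the test (adjusted p = 0.524). With both medians below 1 CPM and 1 liver far above them, this test could not decide whether the sex effects on Folr1 differ.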

How the data were processed

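RNA of 4 ES lines (2 male, 2 female) was sequenced from stranded total RNA libraries. The authors deposited raw counts of reads per gene: reads had been aligned to mm10 (TopHat 2.0.4 with Bowtie2 2.1.0), cleared of duplicates with Picard and counted by HTSeq, and were not normalized. The strand setting of the counting is not given in the sources used here, so that overlapping and antisense genes cannot be told apart. The 5 rows that name no gene (48.0% to 52.6% of the ES totals) were left out. Genes were placed on GRCm38 by symbol and synonym (99.0% of 23338). The 8-cell embryos and adult livers of the series entered no comparison here.

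Sex was tested by edgeR 4.0.16 (R 4.3.3) over the 4 lines (TMM, filterByExpr, robust quasi-likelihood F test, two-sided), with Benjamini-Hochberg adjustment over all 12678 genes tested, sex-linked genes included. The study itself used DESeq2, which is an alternative here (version 1.42.0). A gene was called where the adjusted p-value was under 0.1 and log2 (male/female) exceeded 0.5 in size. SE is the absolute log2 over the square root of F. CPM are counts scaled by TMM-adjusted library sizes, and differences between lines and over chromosomes used log2 (CPM + 0.5). Lists with 1106 matched autosomal members in all were described by counts and medians without a test. A gene in several lists counts in each of them. Floors of 3 reads cover counting error only. The interaction with fetal liver was fitted over 4 ES lines and 24 livers. Methods were tested on simulated data. Summaries used Python 3.11.15, numpy 2.4.6 and pandas 2.3.3.

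The samples, genes and lists were chosen with earlier results of these data known. The named genes are Sox11 and Folr1, the 8 called autosomal genes per direction with the smallest adjusted p-values, the 5 per direction with the largest absolute log2 at a mean of 5 CPM or more, at most 4 called members per list and direction, the defining members of each list, and the sex-linked genes and ribosomal row that describe the libraries. A few of the genes this rule picks are not reported. Promoter sequences are from RefSeq on GRCm38.p6, which had none for Folr1 under this symbol. The alternatives were DESeq2, its size factors, TMM factors from autosomal genes, other filters and thresholds, a fit without robust estimation and each line left out. Counts without chromosome 11 were added after seeing the data.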

Additional observations from a re-analysis of the deposited data

Results flagged for a closer look

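The sex effect differed between ES lines and fetal livers for 1793 of 10834 autosomal genes by edgeR's interaction test, the difference between groups that brought these genes here. Among them, the male bias of Sox11 in ES lines exceeded that in fetal livers by 1.37 on the log2 scale (adjusted p = 0.000249). Both male ES lines were above both female lines for Sox11, and the adjusted p-value of the interaction lay between 0.000382 and 0.00505 under the other settings. Sox11 was chosen with its difference in these ES lines known, so that none of these p-values is independent of the choice.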

How the results depend on the processing

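No paired analysis was possible because the sources used here do not say which lines came from the same litter. The 899 dimorphic autosomal genes (430 male-biased, 469 female-biased) fell to 448 (201 and 247) at an adjusted p-value under 0.05 and to 513 (217 and 296) at an absolute log2 above 1. Leaving out each line in turn gave 0 to 2688 genes, 0 to 1456 male-biased and 0 to 1232 female-biased. Both counts of 0 came without a female line, when the spread came from the male pair alone. Leaving out a male line gave 2219 and 2688 genes, of which 840 and 847 were among the 899, with the spread taken from the female pair and the lone male line assumed to vary like it. DESeq2, other size factors, other filters, no log2 threshold, a fit without robust estimation and the removal of chromosome 11 stayed within 1.5 times the counts. TMM factors from autosomal genes moved the split to 405 male-biased and 493 female-biased. The median log2 of chromosome 11 was 0.29, and 0.03 without male line 1. Of 106 named called genes, 93 were also called by DESeq2 and 104 with TMM factors from autosomal genes. Etv4 ranged from -1.60 without male line 2 to 0.80 without male line 1. Male line 1 was the lowest and male line 2 the highest of the 4 lines for this gene. With 2 lines a side, differences under the thresholds were not shown to be absent.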

Other observations

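Some genes differed between lines of the same sex. Crabp2, which binds retinoic acid, was at 9.38 and 1.81 CPM in the male lines and 1.62 and 2.27 CPM in the female lines, with male line 1 alone high. The basement membrane gene Lama1 was at 71.1 and 166 CPM in the male lines and 76.7 and 75.3 CPM in the female lines, with male line 2 alone high. Ddx3y and Uty, both Y-linked, were at 25.6 and 9.36 CPM and at 10.5 and 3.73 CPM in male lines 1 and 2, whereas Eif2s3y was at 4.21 and 4.39 CPM. Lars2, a mitochondrial synthetase gene, was at 9.67 and 159 CPM in the male lines and 10.3 and 2056 CPM in the female lines, and followed the ribosomal row rather than sex in its order over the lines.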
